A study of Mus musculus with 4 samples.

Results

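The IFIT and ISG15-type effectors are antiviral proteins that cells make when interferon reaches them. Their messages were followed here in ATDC5 cells, a mouse chondrogenic line, after transfection of an RNA duplex against Chadl. All 10 genes listed as such effectors were looked up by symbol, and every probe set whose only annotated symbol was 1 of them was taken. This gave 9 probe sets for 7 of the 17097 genes on the array, namely Ifit1, Ifit2, Ifit3, Isg20, Rsad2, Usp18 and Ifi35. Isg15, Bst2 and Ifi44 were not analysed here. The 2 knockdown arrays came from cells given the Chadl duplex, and the 2 control arrays from cells given a universal scrambled duplex. All 4 samples received 30 nM of duplex with a lipid reagent, were moved to differentiation medium after 16 h and were harvested on day 5, so the controls carried transfected duplex RNA too. The model rests on 1 duplex, the only effective one per the labels, and on 1 cell line. The titles name biological replicates, with no further word on whether each was its own culture or transfection. The p-values reflect the spread between these arrays, part of which may be technical.

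Interferons bind paired receptors whose JAK kinases switch on a transcription factor complex that includes IRF9 and binds the interferon-stimulated response element of effector genes. Double-stranded RNA inside a cell is sensed by RIG-I (Ddx58), MDA5 (Ifih1), TLR3 and PKR (Eif2ak2), which is known to start interferon production and can also induce IFIT genes directly through IRF3. The IFIT proteins bind the 5′ ends of RNA and hinder its translation, while ISG15 is a ubiquitin-like protein that is attached to other proteins and taken off again by Usp18.

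The sequence given in the labels for the duplex used against Chadl is shown because it is what set the knockdown cultures apart from the controls. No strand was assigned to it, and the scrambled sequence is not given in the sources used here.
Chadl duplex: acaagguagagaaacaaagagacca

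The promoters of Ifit1, Ifit3 and Rsad2 are shown because they hold the core of the interferon-stimulated response element, the motif through which interferon acts on these genes. The core was searched as GAAANNGAAA on both strands in the 250 bases before each annotated start, with RefSeq windows on GRCm38.p6. Windows were found for 6 of the 7 measured genes. Capitals mark the matches, which here lie on the strand opposite to the gene and read TTTCNNTTTC. The matches printed do not overlap each other.
Ifit1, chr19:34640770-34640828, + strand: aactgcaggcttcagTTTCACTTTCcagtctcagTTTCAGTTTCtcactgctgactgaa
Ifit3, chr19:34583358-34583431, + strand: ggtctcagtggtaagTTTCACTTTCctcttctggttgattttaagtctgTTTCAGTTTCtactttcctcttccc
Rsad2, chr12:26456548-26456587, - strand: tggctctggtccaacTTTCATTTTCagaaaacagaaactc

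Ifit1 and Ifit3 each held 2 matches, which began 104 and 85 bases before the start of Ifit1 and 156 and 122 bases before that of Ifit3. Both genes carried the same pair of cores, TTTCACTTTC followed by TTTCAGTTTC. Rsad2 held 1 match, 120 bases before its start. The windows of Ifit2, Isg20 and Ifi35 held none of these letters. Of all genes on the array that have a window, 3.09% held a match, against 50.0% of the 6 measured effector genes. Lists described below also held matches, in 66.7% of 3 close relatives and 36.0% of 25 other interferon-induced genes. The share was 30.0% of 10 interferon and receptor genes and 27.3% of 11 JAK, STAT, IRF and SOCS genes. Matches were held by 0 of 4 ISG15 conjugation genes and 0 of 8 RNA sensing genes. A match is a description of the sequence and was not tested for binding.

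**Figure D1:**
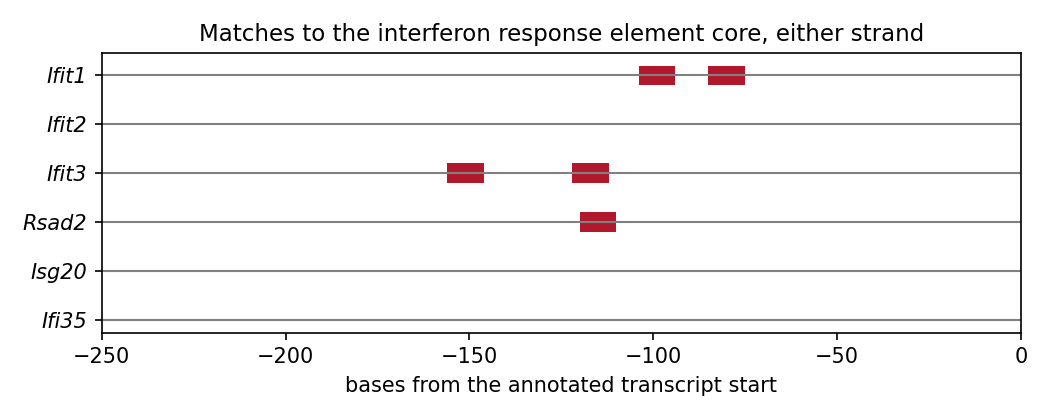
Matches to the response element core (bars) along the 250 bases before the annotated start, in bases from the start on the x axis, for the 6 effector genes with a RefSeq window. Ifit1 and Ifit3 hold 2 matches each and Rsad2 holds 1.

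Signals are on the log2 scale after RMA, and precision is limited by having 2 arrays in each group. The knockdown arrays had medians of 4.24 and 4.25 over all probe sets, and the control arrays had the same to 2 decimals. Chadl, the targeted gene, read 4.29 and 4.64 in knockdown 1 and 2 and 4.91 and 4.84 in the controls, a log2 difference of -0.41 (SE 0.12). Over all genes limma did not call it (adjusted p = 0.728). Ranked by signal, the chondrocyte marker Sox9 was at percentile 79.8, Col2a1 at 92.1, Acan at 52.8 and the hypertrophic collagen gene Col10a1 at 16.4. With an unadjusted p under 0.05, 3 of 13 chondrocyte markers were lower (background 2.52%) and 1 was higher (background 4.15%), and their median log2 difference was -0.06. The lower ones were Hapln1 (-0.41), Col11a2 (-0.36) and Sox5 (-0.25), at signal percentiles 38.9, 40.8 and 40.2, and the higher one was Col11a1 (0.15). The other probe sets of Sox5 differed by only -0.02, -0.02 and -0.09, and the other one of Col11a1 by 0.01. The other one of Hapln1 differed by -0.64. Col2a1 differed by -0.82 in knockdown 1 and by 0.12 in knockdown 2. Of 9 immune cell markers measured, 2 lay above both controls in both knockdown arrays, beside 21.2% of all genes. Below both controls lay 1, beside 17.1%. The higher ones were Lyz2, by 0.31, and Nkg7, by 0.09, and the lower one was Cd79a, by -0.17. They were dim, at signal percentiles 4.86, 16.6 and 25.8. Lyz2 differed by 0.08 in knockdown 1 and by 0.54 in knockdown 2. Ptprc, the pan-leukocyte marker, read 3.45 and 3.23 in the knockdowns against 3.30 and 3.32 in the controls. Knockdown 1 differed more than knockdown 2 from the controls. Against control 1, the gene-wise log2 differences had an SD of 0.20 for knockdown 1 and 0.13 for knockdown 2. Between the controls this SD was 0.10, and between the 2 knockdown arrays it was 0.20. Knockdown 1 thus lay about as far from knockdown 2 as from control 1. The 3′ minus 5′ signal of the Gapdh array controls, a measure of RNA integrity and labelling, was 0.09 and 0.15 in the knockdowns and 0.07 and 0.07 in the controls. For Actb it was 0.80 and 0.82 in the knockdowns and 0.81 and 0.83 in the controls. The part of these marker and array differences in the results below was not tested.

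The effector genes had slightly higher signals in the Chadl knockdown arrays, and no single gene passed the test. All 7 measured genes had both knockdown arrays above both controls, against 21.2% of all genes. When a gene's probe sets were averaged this count was 6, Rsad2 being the exception. Among genes at or above the 75th percentile of mean signal, where all 7 lay, this share was 23.6%. That limit was chosen after the values were seen. The median log2 difference of the 7 genes was 0.21, a 1.16-fold higher signal, beside 0.01 over all genes. The differences ranged from 0.06 for Ifit2 to 0.42 for Isg20. At an adjusted p of 0.05 over all genes, limma called 0 of the 7, as it called 0 of 17097 genes (0%). Over all probe sets it called 0 of the 9 effector probe sets, beside 1 of 45037 (0.00222%). At an unadjusted p of 0.05, 5 of the 7 were higher, beside 4.15% of all genes, and 0 were lower, beside 2.52%. In RNA from whole cultures, a change in the share of responding cells and a change in RNA per cell cannot be told apart.

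**Figure D2:**
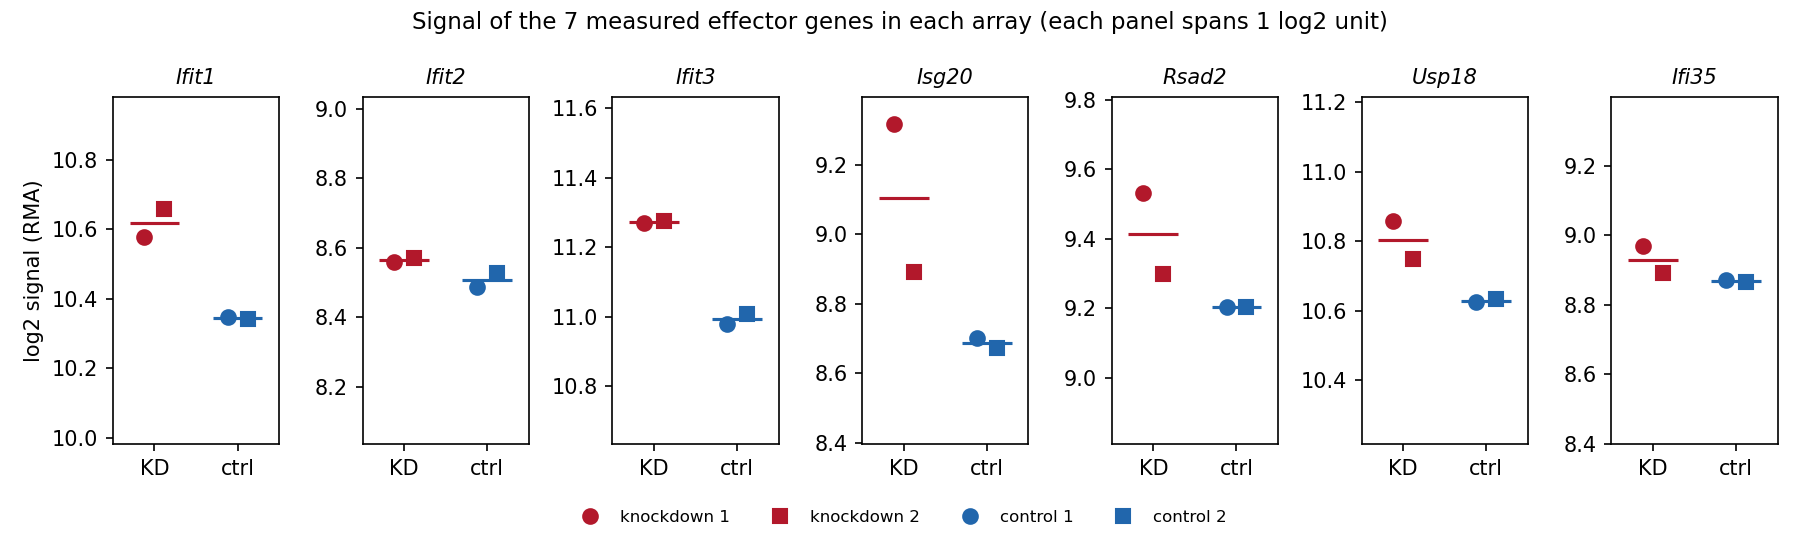
Log2 signal after RMA (y axis, each panel spanning 1 log2 unit) of the brightest probe set of each effector gene in the knockdown (KD, red) and control (ctrl, blue) arrays, with circles for replicate 1, squares for replicate 2 and lines for the group means (n = 2 each). Both red points lie above both blue points in all 7 panels, with the widest gap between red points for Isg20.

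Ifit3 and Ifit1, tetratricopeptide-repeat proteins that act together on viral RNA, had the smallest unadjusted p of the 7. Ifit3 read 11.27 and 11.28 in knockdown 1 and 2, against 10.98 and 11.01 in control 1 and 2. Both knockdown arrays were high and near each other, and the groups did not overlap. It was 1.21-fold higher, a log2 difference of 0.28 (SE 0.03, 95% confidence interval 0.21 to 0.35), and ranked 2 of all genes by unadjusted p (limma, unadjusted p = 4.6e-05, adjusted p = 0.3).

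Ifit1 read 10.58 and 10.66 in knockdown 1 and 2, against 10.35 and 10.34 in the controls. Knockdown 2 was the highest of the 4 arrays, although knockdown 1 was the array farther from the controls over all genes. Ifit1 was also 1.21-fold higher, with a log2 difference of 0.27 (SE 0.04, 95% confidence interval 0.18 to 0.37) (limma, unadjusted p = 0.000367, adjusted p = 0.451).

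Ifit2, a related RNA-binding protein of the same gene cluster, hardly differed between the groups. Its signals were 8.56 and 8.57 in the knockdown arrays, against 8.49 and 8.53 in the controls. The groups were apart by less than the controls differed from each other, 0.03 against 0.04 log2 units, counting from the lowest knockdown to the highest control. The log2 difference was 0.06 (SE 0.05, 95% confidence interval -0.07 to 0.19, limma adjusted p = 0.853), so a difference as large as that of Ifit3 lay outside the interval of Ifit2. The difference between these genes was not tested.

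Ifit1bl1, another gene of the cluster, had a larger difference than any of the 7 effectors. It is not among the 10 effectors, and was in a list of close relatives. It had signals of 6.74 and 6.41 in knockdown 1 and 2, against 5.78 and 5.77 in the controls. This 1.74-fold higher signal (log2 difference 0.80, SE 0.12, 95% confidence interval 0.51 to 1.09) was not called over all genes (limma, unadjusted p = 0.000409, adjusted p = 0.466). RefSeq annotates Ifit1bl1 across a stretch that overlaps Ifit1, and IFIT genes are alike in sequence, so cross-hybridisation between their probes cannot be told apart from their own signal. Of the other relatives, Ifit1bl2 was near the bottom of the signal range (percentile 1.83) and Ifi44l differed by -0.04.

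Isg20, an exonuclease that degrades single-stranded RNA, had the largest mean difference of the 7 and the widest gap between the knockdown arrays. It read 9.32 in knockdown 1 and 8.89 in knockdown 2, against 8.70 and 8.67 in the controls. Both knockdown arrays were above the controls, by 1.55-fold in knockdown 1 and 1.15-fold in knockdown 2. Over both arrays the log2 difference was 0.42 (SE 0.13, 95% confidence interval 0.11 to 0.73, limma unadjusted p = 0.0159, adjusted p = 0.728). The gap of 0.43 between the knockdown arrays was as large as the mean difference itself.

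Rsad2 encodes viperin, an enzyme that makes a chain-terminating nucleotide against viral polymerases, and it was the only effector gene read by more than 1 probe set. Its brightest probe set had signals of 9.53 and 9.30 in knockdown 1 and 2, against 9.20 and 9.20 in the controls (log2 difference 0.21, SE 0.08, limma unadjusted p = 0.0345, adjusted p = 0.743). The other 2 probe sets did not keep the groups apart. The brighter of them read 8.04 and 7.70 in the knockdowns against 7.80 and 7.85 in the controls. The dimmer read 7.19 and 6.94 in the knockdowns against 6.98 and 7.02 in the controls. In both of them knockdown 1 was the highest array and knockdown 2 the lowest. Their log2 differences were 0.05 (SE 0.11) and 0.07 (SE 0.10) in the fit over all probe sets. With the mean of the 3 probe sets the difference of Rsad2 was 0.11 (limma adjusted p = 0.835). Of the 9 effector probe sets, 7 had both knockdown arrays above both controls, against 18.6% of all probe sets.

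**Figure D3:**
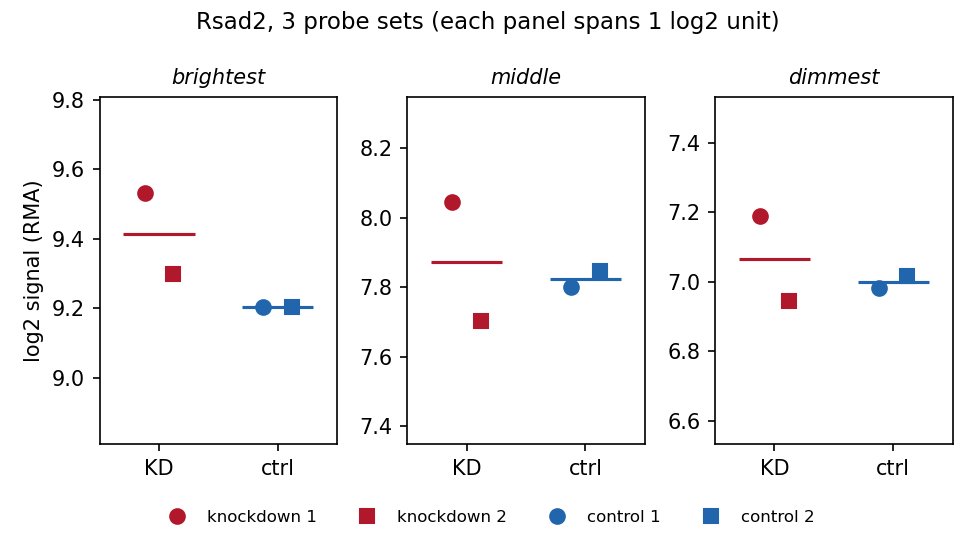
Log2 signal after RMA (y axis, each panel spanning 1 log2 unit) of the 3 Rsad2 probe sets in the knockdown (KD, red) and control (ctrl, blue) arrays, with circles for replicate 1, squares for replicate 2 and lines for the group means. Only in the brightest probe set does knockdown 2 lie above the controls.

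Usp18, the protease that removes ISG15 from proteins and dampens interferon receptor signalling, read 10.86 and 10.75 in knockdown 1 and 2. In the controls it read 10.63 and 10.63. The groups did not overlap, and knockdown 1 lay about as far above knockdown 2 as knockdown 2 lay above the controls. Usp18 was 1.13-fold higher (log2 difference 0.17, SE 0.04, 95% confidence interval 0.07 to 0.28, limma unadjusted p = 0.00604, adjusted p = 0.68).

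Ifi35, which encodes a leucine-zipper protein that partners Nmi, differed little. Its signals were 8.97 and 8.89 in the knockdown arrays, against 8.87 and 8.86 in the controls. The lower knockdown array was only 0.02 above the control mean, and the log2 difference of 0.06 had an interval that spans 0 (SE 0.05, 95% confidence interval -0.07 to 0.19, limma adjusted p = 0.84).

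**Figure D4:**
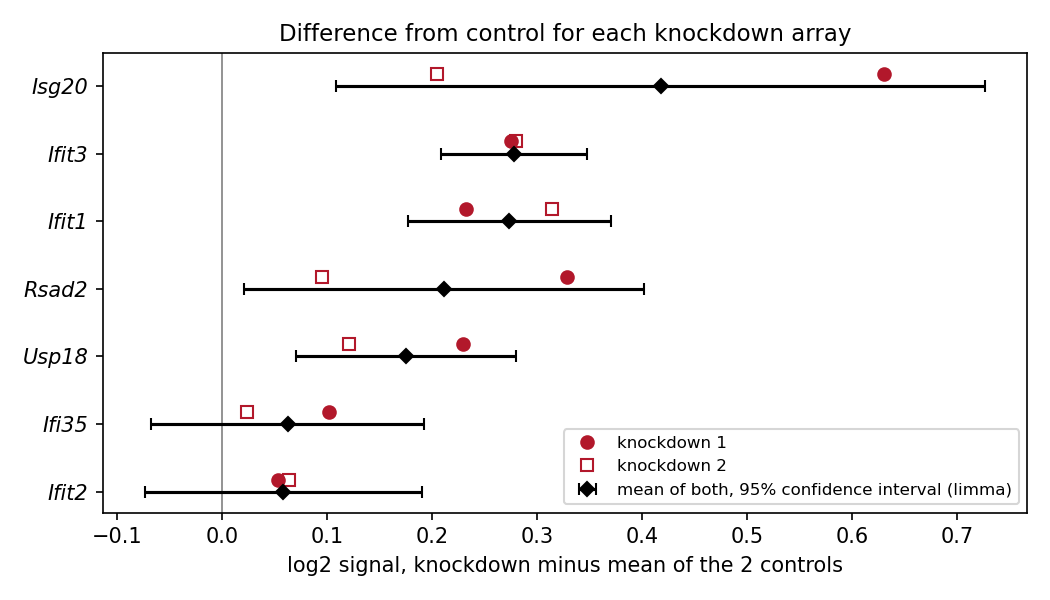
Log2 signal of each knockdown array minus the mean of the 2 controls (x axis) for the 7 effector genes, with red circles for knockdown 1, open squares for knockdown 2, and black diamonds with bars for the mean of both and its 95% confidence interval from limma. The intervals of Ifi35 and Ifit2 span 0, and the arrays part most for Isg20.

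The 2 knockdown arrays did not share the difference evenly in every gene. Ifit1, Ifit2 and Ifit3 were higher in knockdown 2, by 0.08, 0.01 and 0.0044, while Isg20, Rsad2, Usp18 and Ifi35 were higher in knockdown 1, by 0.43, 0.23, 0.11 and 0.08. That is 4 of 7 with knockdown 1 on top, a share near the 46.8% of all genes. For Ifit2 and Ifit3 the gap between the knockdown arrays was smaller than the gap between the controls of the same gene. Between the 2 controls the 7 genes differed by at most 0.04 in either direction. Against the control mean the median of the 7 was 0.23 in knockdown 1 and 0.12 in knockdown 2, beside -0.0031 and 0.01 over all genes.

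Leaving out a knockdown array changed the calls. Without knockdown 1, limma called 561 genes (3.28%) and 4 of the 7 effectors, Ifit1, Ifit3, Isg20 and Usp18, all higher, with the adjusted p from 1.15e-06 (Ifit3) to 0.00946 (Isg20). Higher calls made up 1.91% of all genes in that fit. Without knockdown 2 it called 2584 genes (15.1%), 8.94% of all genes being higher calls, and the same 4 effectors with Rsad2. In both fits the spread comes from the controls alone and the lone knockdown array is taken to vary like them. Without either control, 0 genes were called, as in the fit with all 4 arrays.

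Around these effectors, the genes that attach ISG15 to proteins had a median difference of similar size. All 4 measured genes of this list had a positive difference and 3 had both knockdown arrays above both controls (background 21.2%), with a median of 0.16. Uba7, the activating enzyme of ISG15, read 6.22 and 6.13 in the knockdowns against 5.90 and 5.79 in the controls, and its log2 difference was 0.33 (SE 0.09, limma unadjusted p = 0.00757, adjusted p = 0.694), with all 3 of its probe sets in the same direction. Ube2l6, the conjugating enzyme, differed by 0.17 (SE 0.08), and Trim25, a ligase that also acts on RIG-I, by 0.16 (SE 0.07). Herc6, a ligase for ISG15 in mouse, read 5.17 and 4.48 in the knockdowns against 4.85 and 4.61 in the controls, and thus lay on opposite sides of the controls in the 2 knockdown arrays. Knockdown 1 was above knockdown 2 in all 4 genes of the list (background 46.8%).

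Of 34 other interferon-induced genes measured, 24 were above both controls in both knockdown arrays (background 21.2%) and 1 was below (background 17.1%). Limma called 0 of them over all genes. At an unadjusted p of 0.05, 15 were higher (background 4.15%) and 0 were lower (background 2.52%). The median log2 difference was 0.18, and 0.11 without knockdown 1. The GTPase gene Ifi47 read 9.54 and 9.34 in the knockdowns against 9.09 and 9.14 in the controls (log2 difference 0.33, SE 0.07). Trim21, a ligase that binds antibodies, differed by 0.25 (SE 0.07), Cmpk2, a nucleotide kinase encoded beside Rsad2, by 0.22 (SE 0.07), and Oasl2, a relative of the oligoadenylate synthetases, by 0.16 (SE 0.05). The other, dimmer probe set of Cmpk2 differed by only 0.02, and that of Trim21 by 0.28. In Oasl2 the knockdown arrays lay at 8.97 and 8.98 against 8.81 and 8.81 in the controls, an even pattern like that of Ifit3. Most of the list was less even, with knockdown 1 above knockdown 2 in 28 of the 34 genes (background 46.8%). Against the control mean the median of the list was 0.26 in knockdown 1 and 0.11 in knockdown 2.

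Lists of upstream genes had smaller medians over both knockdown arrays. In the list of JAK, STAT, IRF and SOCS genes, 5 of 11 were above both controls in both knockdown arrays (background 21.2%) and 0 were below (background 17.1%), with a median of 0.10. That median was 0.03 without knockdown 1 and 0.24 without knockdown 2, where the effectors had 0.23. At an unadjusted p of 0.05, 2 of them were higher (background 4.15%) and 0 were lower (background 2.52%). Knockdown 1 was above knockdown 2 in 9 of the 11 genes (background 46.8%). Irf7, the interferon-induced factor that amplifies interferon production, read 7.38 and 7.26 in the knockdowns against 7.05 and 7.08 in the controls (log2 difference 0.25, SE 0.08). Jak1, a receptor kinase, differed by 0.26 (SE 0.08) in its brightest probe set, while 1 of its 3 probe sets differed by -0.33. Irf9, the DNA-binding part of the interferon factor, differed by 0.12 (SE 0.05), with signals of 8.68 and 8.68 in the knockdowns against 8.55 and 8.58 in the controls. Irf1 read 8.66 and 7.97 in the knockdowns against 7.83 and 7.90 in the controls, so nearly all of its difference lay in knockdown 1.

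Among genes of RNA sensing, 5 of 11 were above both controls in both knockdown arrays (background 21.2%) and 1 was below (background 17.1%), with a median of 0.07. In 10 of the 11, knockdown 1 was above knockdown 2 (background 46.8%). At an unadjusted p of 0.05, 0 were lower (background 2.52%) and 2 were higher (background 4.15%). The higher genes were Ddx58, the gene of RIG-I, at 9.62 and 9.58 in the knockdowns against 9.37 and 9.41 in the controls (log2 difference 0.21, SE 0.05), and Ifih1, the gene of MDA5, at 8.55 and 8.37 against 8.28 and 8.23 in the controls (log2 difference 0.21, SE 0.08). For Ddx58, 1 of 3 probe sets had the opposite sign. Tlr3, the endosomal receptor of double-stranded RNA, differed by 0.12 (SE 0.05), and Zbp1, a sensor of left-handed nucleic acids, by 0.41 (SE 0.21), with 6.31 and 5.64 in the knockdowns against 5.50 and 5.63 in the controls. The kinase gene Eif2ak2 differed by 0.03 and the adaptor gene Mavs by 0.01.

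The interferon genes themselves and their receptors lay on both sides of the controls. Of 11 measured, each by its brightest probe set, 0 were above both controls in both knockdown arrays, beside 21.2% of all genes. Below both were 3, beside 17.1% of all genes, and the median was -0.03. Ifnb1, the gene of interferon beta, was dim (percentile 20 by signal), with readings of 3.84 and 3.68 in the knockdowns, against 3.53 and 3.68 in the controls. The other ligand genes were dim as well, Ifna1 differing by -0.04, Ifna2 by -0.17, Ifna4 by 0.06 and Ifng by 0.04. At such levels array signal can understate a difference, and no limit of detection was measured. Interferon production at day 5 was not tested. Of the receptor genes, Ifnar1 differed by -0.03, Ifnar2 by 0.16, Ifngr1 by -0.09, Ifngr2 by -0.07, Ifnlr1 by -0.09 and Il10rb by -0.03. At an unadjusted p of 0.05, 0 of the 11 ligand and receptor genes were higher (background 4.15%) and 0 were lower (background 2.52%). For Ifngr2, 1 of 2 probe sets had the opposite sign. The 2 dimmer probe sets of Ifnar2 did have both knockdown arrays above both controls, each with a difference of 0.11.

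**Figure D5:**
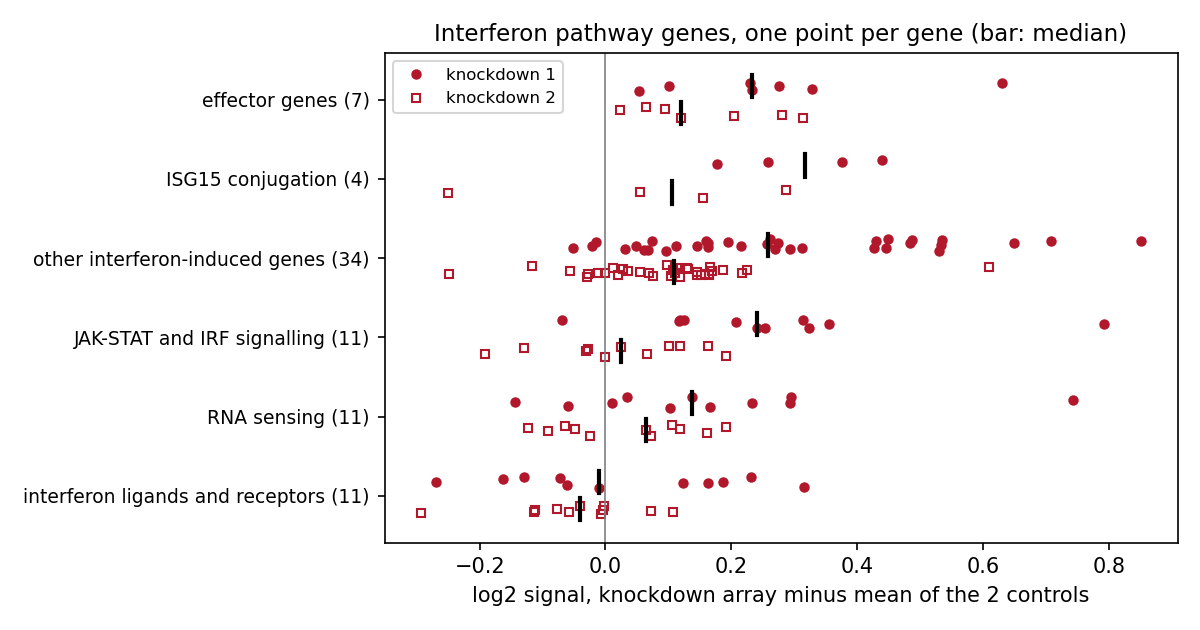
Log2 signal of each knockdown array minus the mean of the 2 controls (x axis), with a point for each gene, filled circles for knockdown 1, open squares for knockdown 2 and a black bar for each list's median. The medians of the effector genes are 0.23 in knockdown 1 and 0.12 in knockdown 2, and those of the ligands and receptors lie near 0.

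The profile of the 7 effectors over the 4 arrays, each gene taken relative to its own mean, averaged 0.16 in knockdown 1, 0.05 in knockdown 2, -0.11 in control 1 and -0.10 in control 2. Among genes of at least median signal outside the 7, the 5 nearest to it by root mean square distance over the 4 arrays were Arhgef18 (0.0024), Ppp3ca (0.0025), Telo2 (0.0086), Ift74 (0.012) and Fcf1 (0.015 log2 units). None of these 5 belongs to the interferon lists. Of the effectors, Usp18 lay nearest to the profile (0.018) and Isg20 farthest (0.153). A gene with the same signal in all 4 arrays would lie at 0.112, nearer than Isg20.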

How the data were processed

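RNA of the 4 samples was labelled with biotin and hybridised to Affymetrix mouse arrays. The deposited values are log2 signals that the authors normalized with RMA, per the submitters' processing notes; its version is not given in the sources used here, and the log base is inferred from their range. RMA makes the arrays' distributions alike and compresses differences of dim genes. The effector genes, lists and tests were chosen with earlier results of these data known.

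Of 45141 probe sets, 104 array controls were left out and 45037 kept. The platform annotation, which can be old, gave 1 symbol to 28898 probe sets, several to 551 and none to 15692, array controls included. Each of 17097 genes was represented by its probe set of highest mean signal, and 0 per-sample columns were unused. The contrast, knockdown minus control, was fitted in R 4.3.3 by limma 3.58.1 (lmFit and eBayes with its trend option). It had 2 residual and 4.45 prior degrees of freedom. The test was two-sided, with Benjamini-Hochberg adjustment over all genes and no filter. On 20 simulated sets the step called 42.1% of genes given a log2 change of 0.5 and 96.3% of those given 1. False calls numbered 8.95 a set. The largest effector difference, 0.42, lay below 0.5, so changes of that size could often be missed. Named were all effectors, Chadl, the genes of the ISG15 conjugation and the ligand and receptor lists, and of each other pathway list the 4 genes of smallest unadjusted p among those at or above the median signal of 4.86. Mavs, Eif2ak2, Ifit1bl2, Ramp2 and the cell type markers named fall outside that rule and were chosen after their values were seen.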

Additional observations from a re-analysis of the deposited data

How the results depend on the processing

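The number of effectors called was 0 with all 4 arrays and 0 under every alternative with all arrays. These were quantile normalization, centring on the median, leaving out dim genes, the mean of probe sets and no _x_at or _s_at probe sets. The others were eBayes without trend or robust, the fit over all probe sets and an adjusted p of 0.1. RMA had already made the arrays' distributions alike, so quantile normalization and centring could change little. Leaving out an array in turn gave 0 to 5 called effectors and 0 to 2584 called genes. The number of genes called was 1 over all probe sets and 1 without _x_at and _s_at probe sets, in each case Ramp2, a receptor partner of adrenomedullin, outside the effectors. Of the 7 effectors, 5 had an unadjusted p under 0.05, 3 did without the trend, and 2 to 6 did when an array was left out. Their median log2 difference was 0.12 to 0.23 when an array was left out, 0.12 being the value without knockdown 1, and 0.17 with the mean of probe sets. Without knockdown 1 the medians were 0.11 for ISG15 conjugation, 0.03 for JAK-STAT and IRF signalling, 0.06 for RNA sensing and 0.11 for other interferon-induced genes, and without knockdown 2 they were 0.32, 0.24, 0.14 and 0.26 in the same order. The effectors with both knockdown arrays above both controls were 6 with the mean of probe sets and 7 otherwise. All 7 differences stayed positive under the 12 alternatives run for them, from 0.04 to 0.08 for Ifit2 and from 0.20 to 0.63 for Isg20. The replicate numbers are shared by the groups but the deviations of same-numbered arrays had a correlation of -0.0041 over genes. With the replicate number as a block, 0 genes and 0 effectors were called, and the adjusted p of Ifit3 was 0.612. The cause of these changes was not tested. With 2 arrays a group, the precision is that of the spread between so few arrays.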

Other observations

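The response element core was also counted over all genes on the array that have a promoter window. Outside the interferon lists, 401 genes held a match, with a median log2 difference of 0.02, and 24.7% of them had both knockdown arrays above both controls. Of 13184 genes without a match, with a median of 0.0068, 21.3% did. The interferon lists were not left out of these 13184 genes. These are descriptions with no test.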
